A study of Canis lupus familiaris with 20 samples.

Results

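Muscle RNA of 2 dystrophic dogs labelled escaper was compared with muscle RNA of 4 dystrophic dogs labelled affected, across all genes that the arrays measured in these 6 dogs. Both groups carry the disease label DMD, for Duchenne muscular dystrophy, all dogs were 2 years old, and 4 normal dogs of the same age were measured the same way. RNA of each dog was hybridised on 2 canine Agilent arrays, once labelled with the dye Cy5 and once with Cy3, always against RNA of a single normal individual as the common reference. The comparison therefore used 12 of the 20 arrays of the series, and the 2 arrays of a dog were averaged, since they are technical repeats of 1 animal. The labels name the tissue as muscle, but the muscle sampled, the mutation, the breed, any treatment and the kinship of the dogs are not given in the sources used here. Each slide held the arrays of 2 dogs of 1 group, so both escapers lay on 1 slide and the affected dogs on the other 2, and slide and escaper status cannot be told apart. Of 5757 genes measured, 484 (8.41%) had both escapers outside the whole range of the affected dogs on the same side, 193 (3.35%) above it and 291 (5.05%) below it. Wherever both escapers are said to lie outside the range, both lie on the same side of it. Genes with 1 escaper above and the other below all affected dogs are not counted.

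Duchenne muscular dystrophy follows from loss of dystrophin, a protein that ties the cytoskeleton of the muscle fibre through a membrane complex to the surrounding matrix. Without it fibres are damaged by contraction, go through rounds of degeneration and repair, and are gradually replaced by connective tissue and fat. Escaper dogs are known for a mild course of the disease although their muscle lacks dystrophin, and the comparison asks how their muscle differs from that of affected dogs with the same deficiency.

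Each value is the log2 ratio of a dog to the reference, so 0 means the level of the reference individual and 1 a doubling. A gene was measured by a probe of 60 bases, and the first 30 bases are given here for 6 genes described further on. CCL24 and GRIP2 had the widest gaps above the affected dogs. ACTG2 had the widest gap of the smooth muscle and pericyte markers, and MPHOSPH8, ATPAF1 and MRPL1 had the widest gaps below. Bases run 5′ to 3′, all in lower case since no part is singled out.
CCL24: gcatggatgacctttaacagctgcggctct
GRIP2: ggttttagtgtctctgacggcctcctggag
ACTG2: ctccattgtccacaggaagtgcttctaaag
MPHOSPH8: taagaaacaaaggaatcaggacaaaagcaa
ATPAF1: agaactgaaatgtgcccagaaccaggataa
MRPL1: cgtttgcaggaggaactaatctgattcaga
The array annotation places these probes at chr6:10167981-10168042, chr20:7626688-7626747, chr17:52213308-52213367, chr25:21403590-21403649, chr15:16833039-16833098 and chr32:5360547-5364703, in that order. Its genome build, the strand and the exon or untranslated region of each probe are not given in the sources used here.

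Affected 1 and escaper 2 stood apart from the other dogs. Affected 1 lay outside the range of the other 5 dogs in 58.7% of genes and escaper 2 in 59.4%, against 14.9% to 25.2% for the rest. Over 14865 probes, which share the reference RNA, escaper 1 correlated with affected 2 at r = 0.72 and with affected 3 at r = 0.69, while the 2 escapers correlated with each other at r = −0.00364. No dog correlated with affected 1 above r = −0.00758. The escapers lay on opposite sides of the affected mean in 3194 genes (55.5%). The 2 arrays of a dog correlated at r from 0.589 in affected 4 to 0.909 in escaper 2. The median SD of a gene between dogs was 0.28 in normal (n = 4), 0.47 in affected (n = 4) and 0.54 in escaper dogs (n = 2). The share of the 42034 probes that the dog's dye lifted well above background was lowest at 30.5%, on the Cy3 array of affected 2, and highest at 60.2%, on the Cy5 array of affected 4.

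**Figure D1:**
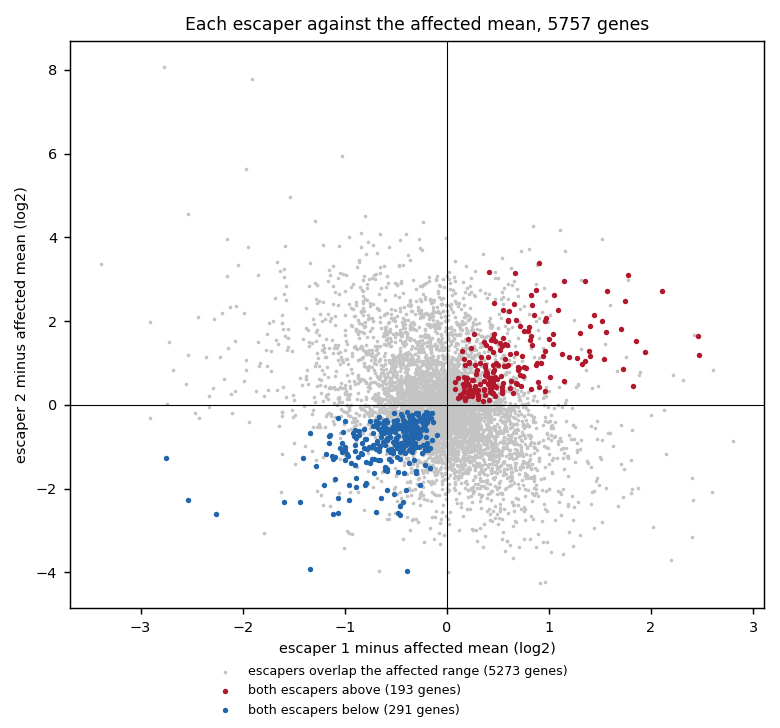
Difference of each escaper from the mean of the 4 affected dogs on the log2 scale, 1 point per gene, with escaper 1 on the horizontal and escaper 2 on the vertical axis. The coloured points are the 193 genes with both escapers above and the 291 with both below all affected dogs. The grey points are the other 5273 genes. They lie in all quadrants and include the 3194 genes where the escapers differ in sign.

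No probe passed an adjusted p of 0.05 between escaper and affected dogs in the limma fit of 14865 probes, where the smallest adjusted p was 0.988. An unadjusted p under 0.05 was reached by 260 probes (1.75%), and among the genes by 99 of 5757 (1.72%). The median SE of a difference was 0.46, and the median 95% interval reached 1.10 to each side on the log2 scale, so differences of a doubling were mostly within the error. For a single gene the 6 dogs allow 15 arrangements, and the smallest two-sided p of an exact permutation test is 0.133. The separations described here are accordingly measured values of these 6 dogs, none of them past the threshold. The limma adjusted p of every gene named was between 0.988 and 0.995.

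The separation was narrow in most of the 484 genes. The median gap between the nearest escaper and the nearest affected dog was 0.13 among genes above and 0.11 among genes below, and 32 genes had a gap over 0.5. RFC3, a subunit of the clamp loader of DNA replication, lay just below the affected range by 0.000179, and BCL2, which restrains apoptosis, stayed inside with a gap of −0.000146. In 87 genes all 4 escaper arrays lay beyond all 8 affected arrays, 34 above (0.591%) and 53 below (0.921%), a stricter rule chosen after the data had been seen. Without affected 1 the counts were 377 above and 408 below, and all of the 193 and 291 genes stayed among them because a range over fewer dogs is narrower. Leaving out affected 2 gave 321 and 450, leaving out affected 3 gave 275 and 446, and leaving out affected 4 gave 326 and 454. Escaper 2 alone lay above all affected dogs in 1604 genes (27.9%) and below in 1928 (33.5%), against 824 (14.3%) and 998 (17.3%) for escaper 1 alone.

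Among the genes higher in escapers, the chemokine CCL24, which attracts eosinophils through the receptor CCR3, had the widest gap, 1.18. Its log2 ratio was −0.62, 0.28, 0.22 and 0.48 in affected 1 to 4, and 1.66 and 2.80 in escapers 1 and 2. Both escapers lay above every affected dog and above the normal dogs, which ranged from 0.14 to 0.76. The probe was well above background on all 4 escaper arrays, but on 1 of 8 affected and 0 of 8 normal arrays, and the reference was so on 4 of 12, so the size of the difference is poorly measured. It was 2.14 with the deposited ratios and 0.60 with loess ratios recomputed from the scanner intensities.

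GRIP2, a scaffold protein that binds glutamate receptors, was separated by 1.04. It stood at 0.48, 0.11, −0.06 and 0.33 in affected 1 to 4 and at 1.51 and 1.93 in the escapers, a 2.85-fold difference of means (log2 1.51, SE 0.32, limma adjusted p = 0.988). Normal dogs, at 0.40 to 0.91, lay below the escapers as well. GNAI1, an inhibitory G protein subunit, read 0.90, 0.87, 0.88 and 0.23 in affected 1 to 4 against 2.07 and 1.76 in the escapers. The normal dogs, from −0.45 to 0.94, again lay under both escapers, and in these 3 genes every escaper array exceeded every affected array. The probe of GNAI1 was well above background on 6 of 8 affected and 3 of 8 normal arrays and the reference on 7 of 12, and its difference was 1.19 with the deposited and 0.39 with loess ratios.

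The remaining 9 of the 12 genes with the widest gaps above differed by log2 1.17 to 1.84. PRPSAP1, a partner of the enzyme that makes the nucleotide precursor phosphoribosyl pyrophosphate, stood at −0.67, −1.46, −1.22 and −1.34 in affected 1 to 4 and at 0.22 and 0.12 in the escapers. Here the escapers had an SD of 0.07 (n = 2), a closeness that the choice by widest gap favours. The normal dogs lay between −1.22 and −0.35, nearer to the affected ones. IGFBP5, which binds insulin-like growth factors, stood at −0.75, 0.80, 0.85 and 0.81 in affected 1 to 4 and at 1.71 and 1.56 in the escapers. Affected 1 was far below its group in this gene. Normal 2 to 4, at 0.39 to 1.51, reached almost to the escapers, and normal 1 had no value. DKK2, a secreted modulator of Wnt signalling, was at 0.61, 2.74, 3.08 and 2.09 in affected 1 to 4 and at 3.83 and 3.95 in the escapers. The normal dogs, from 2.79 to 5.09, enclosed the escapers, and the reference was well above background for this gene on 2 of 12 arrays, so its ratios have a weak denominator. C4BPB, a chain of a complement inhibitor, was at 1.13 and −0.16 in the escapers against −1.79 to −0.81 in affected dogs. The other members were ANGPT4, ACTG2, the sperm-related IZUMO4, the testis actin-like ACTL7A and the sugar transporter SLC45A1. IZUMO4 was well above background on 2 of 8 affected and 3 of 4 escaper arrays, ACTL7A on 2 and 4, and SLC45A1 on 3 and 4, so part of their affected values are close to background. Loess ratios made the difference over 1.5 times smaller in 9 of the 12 genes, with ANGPT4 at 0.39 and IZUMO4, the 1 gene that then overlapped the affected range, at 0.21, while ACTG2 stayed at 1.57.

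**Figure D2:**
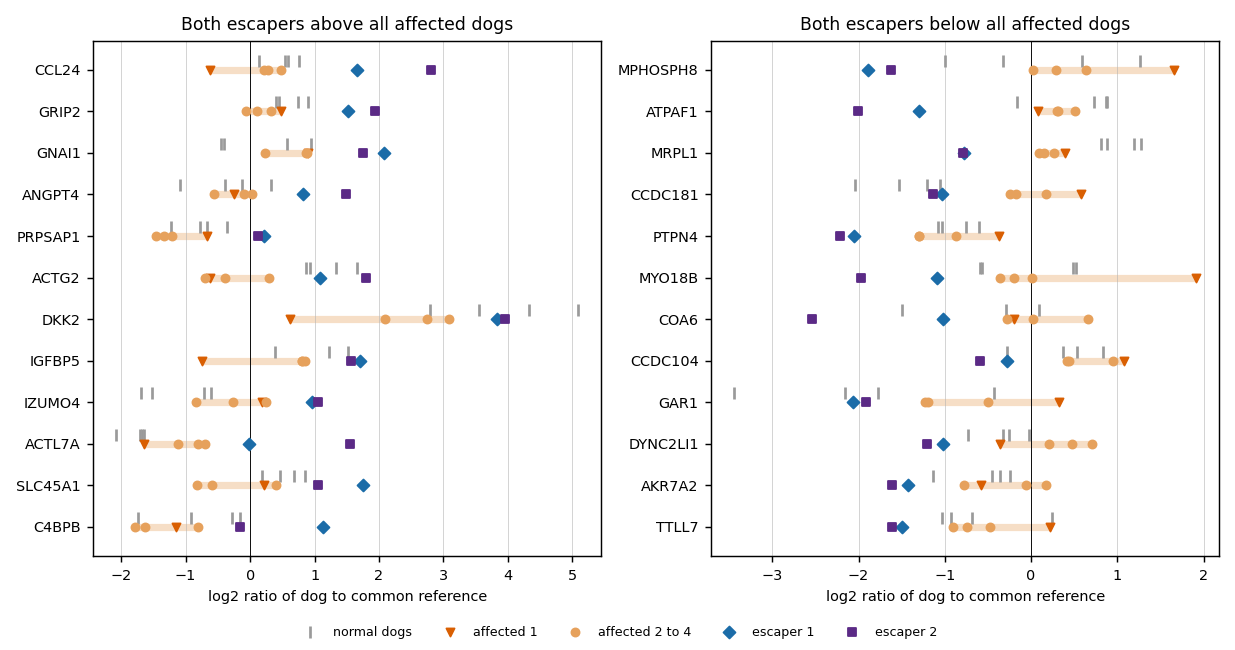
Log2 ratio to the reference in every dog for the 12 genes with the widest gap in each direction, escapers as filled diamonds and squares, affected dogs as points on a bar that spans their range, and normal dogs as grey ticks above. Both escapers lie to the right of the bar in the left panel, from CCL24 with a gap of 1.18 to C4BPB with 0.65, and to the left of it in the right panel, from MPHOSPH8 with 1.65 to TTLL7 with 0.60.

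Among the genes lower in escapers, MPHOSPH8, a chromatin protein that binds methylated histones and takes part in gene silencing, had the widest gap, 1.65. It stood at 1.66, 0.03, 0.29 and 0.64 in affected 1 to 4 and at −1.89 and −1.62 in the escapers. Its probe was well above background on all 8 affected arrays and not well above background on any of the 4 escaper arrays. The level in the escapers is thus poorly measured. The mean signal of the affected dogs was 1.97-fold higher. No escaper signal was under the lowest signal detected on its array, so this is the measured signal ratio and not a bound. Normal dogs spread from −1.0 to 1.26, all above both escapers.

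ATPAF1, a factor that assembles mitochondrial ATP synthase, and COA6, a factor that assembles cytochrome c oxidase, were likewise not well above background on any escaper array. ATPAF1 stood at 0.08, 0.31, 0.51 and 0.30 in affected 1 to 4 and at −1.29 and −2.0 in the escapers, whose mean signal was 1.22-fold lower. ATPAF1 had the smallest unadjusted limma p of the table, 0.000775, and an adjusted p of 0.988. COA6 was at −0.20, 0.02, 0.66 and −0.28 in affected 1 to 4 and at −1.02 and −2.54 in the escapers, whose mean signal was 1.29-fold lower. Both genes were detected on 5 of 8 affected arrays, so their levels in affected dogs lay close to background too. These 2 signal ratios are not bounds either.

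MRPL1, a protein of the large subunit of the mitochondrial ribosome, stood at 0.40, 0.09, 0.26 and 0.15 in affected 1 to 4 and at −0.77 and −0.79 in the escapers. The equal means of the escapers hide a disagreement between dyes, since escaper 1 read −1.93 in Cy5 and 0.38 in Cy3, while escaper 2 read −0.77 and −0.81. The normal dogs lay higher than all 6, between 0.81 and 1.28. PTPN4, a tyrosine phosphatase of the cell cortex, was steadier, at −0.38, −1.30, −1.30 and −0.87 in affected 1 to 4 and at −2.06 and −2.21 in the escapers, below the normal range of −1.08 to −0.61 as well. CCDC181, a microtubule-associated protein, was at 0.58, −0.18, −0.24 and 0.17 in affected 1 to 4 and at −1.04 and −1.14 in the escapers. For CCDC181 the escapers overlapped the normal range, −2.04 to −1.06, from which the affected dogs were separate.

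MYO18B, an unconventional myosin needed to build sarcomeres, stood at 1.91, −0.36, 0.01 and −0.20 in affected 1 to 4 and at −1.09 and −1.97 in the escapers. Affected 1 was far above its group here, and the escapers still lay 0.74 below the lowest affected dog. DYNC2LI1, a subunit of the dynein motor of cilia, was at −1.02 and −1.20 in the escapers and at −0.36 to 0.70 in affected dogs. GAR1, a protein of the particles that modify ribosomal RNA, was at −2.06 and −1.91 in the escapers and at −1.23 to 0.32 in affected dogs, with normal dogs scattered from −3.44 to −0.43. The differences were −1.15 (SE 0.35) for CCDC104, −1.21 (SE 0.38) for AKR7A2, an aldehyde reductase, and −1.08 (SE 0.40) for TTLL7, which adds glutamate chains to tubulin. The escapers were close to each other in these 3 genes, with an SD of 0.22, 0.13 and 0.08 (n = 2), but a choice by widest gap favours such closeness. Loess ratios made the difference over 1.5 times smaller in 10 of the 12 genes with the widest gaps below, from −0.99 in MPHOSPH8 to −0.31 in ATPAF1, and all 12 stayed below the affected range.

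Vessel genes were among those above the affected range. KDR, the main receptor of vascular endothelial growth factor on endothelial cells, stood at 0.17, −0.26, 0.30 and 0.84 in affected 1 to 4 and at 1.06 and 2.03 in the escapers. All 4 escaper arrays, from 0.95 to 2.04, exceeded all 8 affected arrays, which ended at 0.94. The normal dogs, at 1.39 to 2.01, lay above escaper 1 and just below escaper 2. The difference was 2.43-fold (log2 1.28, SE 0.44, 95% interval 0.23 to 2.34, limma adjusted p = 0.988). VEGFA, which encodes the ligand of KDR and is named here after its values were seen, was at −0.40, 0.08, 0.03 and −0.03 in affected 1 to 4 and at 0.41 and 0.36 in the escapers. Its difference was small, 1.38-fold with a 95% interval from −0.26 to 1.18 on the log2 scale, but again no escaper array overlapped an affected one. ANGPT4, a ligand of the endothelial receptor TEK, was at −0.24, −0.56, 0.02 and −0.09 in affected 1 to 4 and at 0.82 and 1.48 in the escapers, above the normal range of −1.08 to 0.32. Its probe was well above background on 4 of 8 affected and 2 of 8 normal arrays.

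ACTG2, a smooth muscle actin, showed the largest separation of the smooth muscle and pericyte markers. It stood at −0.63, −0.39, 0.30 and −0.71 in affected 1 to 4 and at 1.08 and 1.80 in the escapers, 3.48-fold apart (log2 1.80, SE 0.42, limma adjusted p = 0.988). The normal dogs, at 0.87 to 1.66, enclosed escaper 1 and lay below escaper 2. MCAM, an adhesion molecule of vessel walls, was at 0.22 and 1.0 in the escapers and at −0.60 to −0.15 in affected dogs, on a probe bright on 4 of 8 affected arrays. EGFL7, secreted by endothelial cells, was at 0.07 and 0.45 in the escapers and at −0.75 to −0.09 in affected dogs.

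Both escapers lay above the affected range in 2 of 10 endothelial markers tested (20%) and in 2 of 9 smooth muscle and pericyte markers (22.2%), against 3.35% of all genes. The median difference was 0.71 for the endothelial and 0.66 for the smooth muscle list, against −0.06 over all genes. Most of these list medians came from escaper 2, which was above all affected dogs in 9 of 10 endothelial and 6 of 9 smooth muscle markers, while escaper 1 was so in 2 of each list, against 27.9% and 14.3% of all genes. Without escaper 2 the medians were 0.21 and 0.27. PECAM1 and VWF, which define endothelium, were within the affected range in escaper 1, at −0.91 and −0.72, and EMCN was below it at −0.80. In bulk muscle RNA, a different number of cells of a type and a different amount of RNA in each cell cannot be told apart. The part that vessel cell numbers have in KDR, VEGFA and ACTG2 was not tested.

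**Figure D3:**
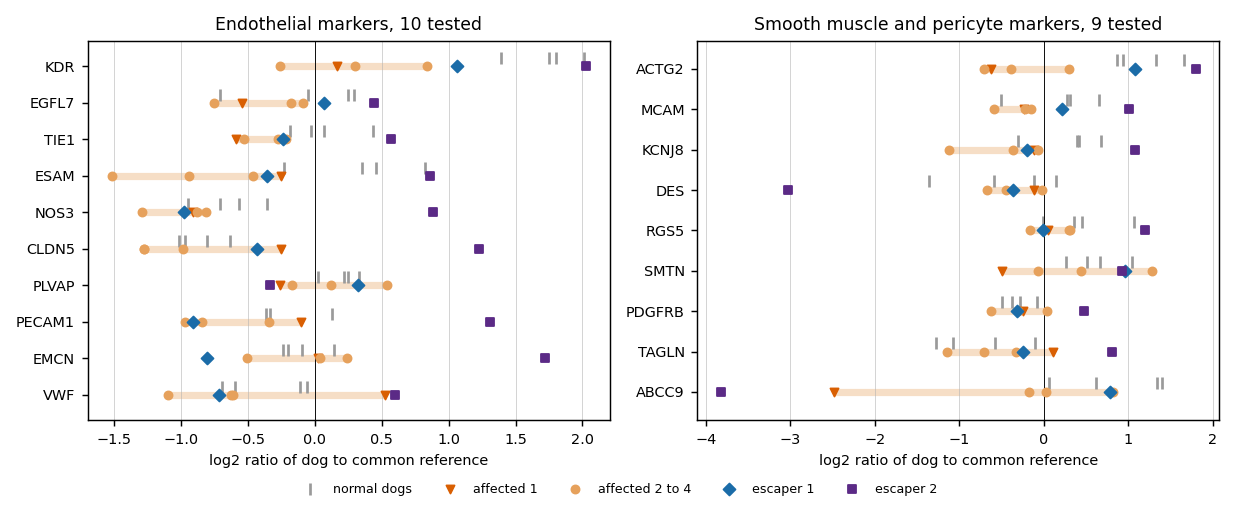
Log2 ratio to the reference of the 10 endothelial and 9 smooth muscle or pericyte markers tested, by dog, ordered by gap, with a bar over the affected range and grey ticks for normal dogs. KDR, EGFL7, ACTG2 and MCAM have both escapers to the right of the bar, and in most other genes escaper 2 alone leaves it.

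Genes of the proteasome, the complex that degrades proteins marked with ubiquitin, made up the list with the largest share of members outside the affected range. Both escapers lay below all affected dogs in 10 of 25 genes tested (40%), against 5.05% of all genes, and 22 of 25 were lower in the mean, as were 55.5% of all genes, with a list median of −0.71. PSMD14, the subunit that removes ubiquitin from substrates, stood at 1.93, −0.45, −0.38 and −0.35 in affected 1 to 4 and at −0.70 and −1.55 in the escapers. PSMD6, of the regulatory particle, stood at 1.52, −0.46, −0.28 and −0.37 in affected 1 to 4 and at −0.74 and −1.04 in the escapers. PSMA2, of the catalytic core, stood at 1.58, −0.32, −0.30 and −0.27 in affected 1 to 4 and at −0.66 and −0.99 in the escapers. In each, affected 1 was far above every other dog, affected 2 to 4 were close together, and both escapers lay below those, escaper 2 the lower.

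The proteasome list median was 1.52 in affected 1, −0.37 to −0.29 in the other affected dogs, −0.50 in escaper 1, −1.0 in escaper 2 and −0.34 to −0.08 in normal dogs. Without affected 1 the median difference was −0.40 and the count outside the range stayed at 10 of 25, against 7.09% of all genes. Escaper 1 alone was below all affected dogs in 11 genes and escaper 2 in 19, against 17.3% and 33.5% of all genes. PSMD14, PSMD6 and PSMA6 were also separate on all arrays. Members that were not lower in escapers included PSME1 and PSME2, the interferon-inducible activator. PSMB9, an inducible subunit of the immunoproteasome that belongs to the antigen presentation list, went the other way, at −0.43, 0.88, 0.24 and −2.75 in affected 1 to 4 and 1.26 and 2.59 in the escapers. It stood at −0.55, 0.34, 0.42 and −3.23 in normal 1 to 4, so affected 4 and normal 4 both lay far below the rest of their groups.

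Mitochondrial ribosomal proteins, which translate the few proteins encoded by mitochondrial DNA, were lower in the mean of the escapers in 47 of 51 genes tested, as were 55.5% of all genes, with a median of −0.46. Both escapers lay below the affected range in 8 of 51 (15.7%), against 5.05% of all genes, and in 10 of 51 when affected 1 was left out, against 7.09%. MRPL13 stood at 0.21, −0.01, −0.15 and −0.07 in affected 1 to 4 and at −0.59 and −1.08 in the escapers, separate on all arrays. MRPL42 stood at 0.51, 0.30, 0.41 and 0.60 in affected 1 to 4 and at 0.03 and −0.30 in the escapers. Normal dogs ranged from −0.06 to 0.38 for MRPL13 and from 0.11 to 0.57 for MRPL42, above both escapers in each. Normal 3 had no value for MRPL42. Escaper 2 carried most of the list, below all affected dogs in 42 of 51 genes, while escaper 1 was below in 10 and above in 7, against 33.5%, 17.3% and 14.3% of all genes, and without escaper 2 the median was −0.02.

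**Figure D4:**
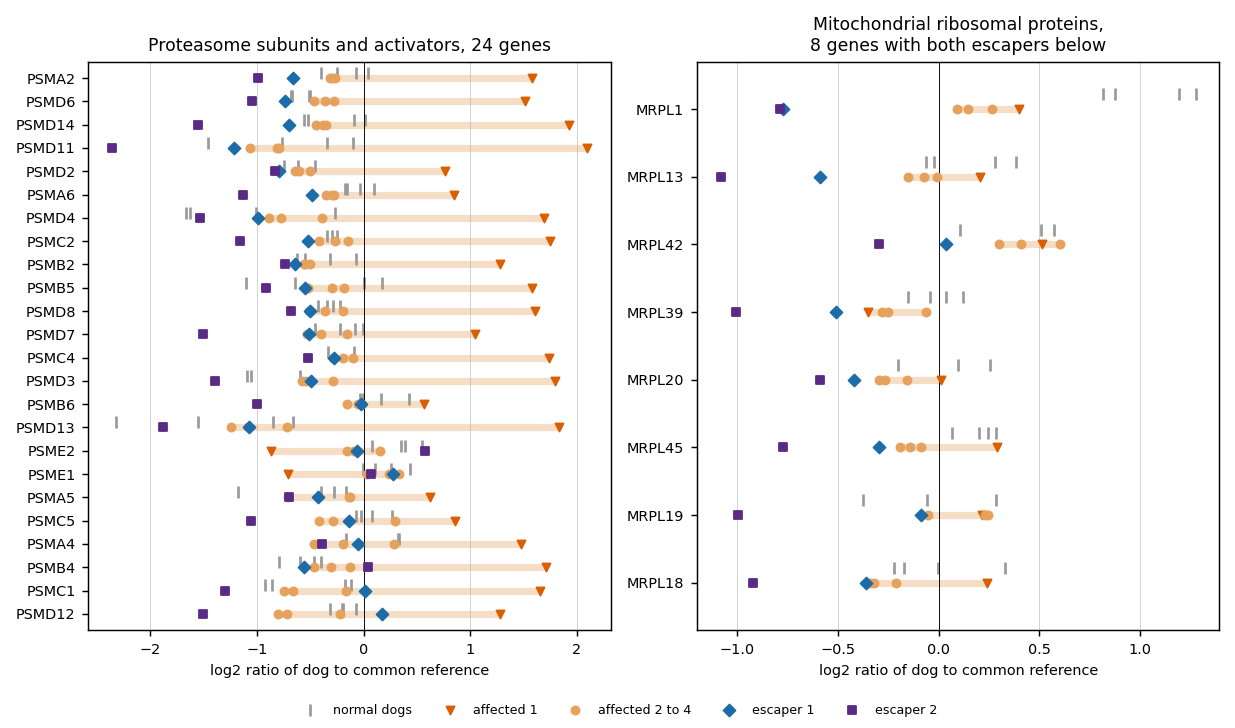
Log2 ratio to the reference by dog for the tested genes of proteasome subunits and activators and for the 8 mitochondrial ribosomal genes with both escapers below the affected range, ordered by gap. In the left panel affected 1 sits apart at the right in most genes, and the 10 uppermost genes, PSMA2 to PSMB5, have both escapers left of the bar. MRPL1 and MRPL13 show the widest separation in the right panel.

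In the lists that describe the muscle fibre and its energy metabolism, the escapers lay mostly on opposite sides of the affected mean. Escaper 1 was above the affected mean in 41 of 42 genes of oxidative phosphorylation and escaper 2 in 1 of 42, so that they were on opposite sides of it in 40, against 55.5% of all genes. In 27 of these genes escaper 1 exceeded every affected dog, against 14.3% of all genes, and in 33 escaper 2 was below every affected dog, against 33.5%. None of the 42 had both escapers outside the affected range on the same side, against 8.41% of all genes. The list median was 0.37 in escaper 1 and −1.41 in escaper 2, against −0.93 to 0.26 in affected and 0.54 to 0.88 in normal dogs. NDUFV3, a subunit of complex I with the smallest p of this list, was at 0.09 and −1.25 in the escapers and at −0.00271 to 0.33 in affected dogs.

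The escapers lay on opposite sides of the affected mean in 24 of 27 genes of fatty acid oxidation and the citric acid cycle, 10 of 15 of glycolysis, 5 of 7 slow fibre genes, 13 of 14 of calcium handling and 9 of 9 skeletal fibre markers. The share over all genes was 55.5%, and the glycolysis and slow fibre lists were nearest to it. Escaper 1 was the higher by its list median in each list, and both escapers were below the affected mean in 2, 5, 2, 1 and 0 of these genes. The list median of the difference from the affected mean was 0.58, 0.57, 0.69, 0.60 and 0.88 in escaper 1, and −1.72, −1.95, −1.99, −2.03 and −2.93 in escaper 2. Myoglobin, MB, chosen after its values were seen, stood at −3.36, 0.67, −0.32 and −0.02 in affected 1 to 4, 1.05 in escaper 1, −2.86 in escaper 2 and 0.20 to 1.74 in normal dogs. Affected 1 and escaper 2 were thus the low dogs, and escaper 1 was within the normal range. The rule-named members HADHA, which oxidises long-chain fatty acids, and MYOZ2, of the sarcomeric Z-disc, had escaper 2 at −2.96 and −2.25 and escaper 1 at −0.42 and −0.20, with affected dogs from −0.87 to 0.60 and from −0.77 to 0.90, so both escapers were below the affected mean in each. Normal dogs ranged from −0.75 to 0.28 for HADHA. For MYOZ2 they ranged from −3.06 to −1.59, around escaper 2 and below escaper 1 and all affected dogs. UGP2, which makes the sugar donor for glycogen, was at −0.69 in escaper 1 and −1.85 in escaper 2, within and below the affected range of −0.98 to 0.21, and both below its mean. CAPN3, a protease of the muscle fibre, was at 0.56 in escaper 1, above all affected dogs at −0.36 to 0.18, and at −2.98 in escaper 2. TRIM54, of the sarcomere, was at −0.13 and −2.86.

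The order was mostly the reverse for connective tissue and immune genes. Escaper 2 was above every affected dog in 25 of 27 extracellular matrix genes, 17 of 18 macrophage markers, 13 of 14 fibroblast markers, 17 of 19 antigen presentation and complement genes, 11 of 13 interferon response genes and 13 of 15 immediate early genes. Escaper 1 was so in 1, 0, 0, 2, 1 and 2 of them. Over all genes escaper 2 was so in 27.9% and escaper 1 in 14.3%. List medians in escaper 2 were 2.19, 2.39, 2.63, 2.22, 1.67 and 2.08 above the affected mean, and in escaper 1 they were −0.41, −0.24, −0.50, −0.36, −0.08 and −0.86. POSTN, a matrix protein of fibrotic tissue chosen after its values were seen, stood at −4.18, −2.73, −2.46 and 1.06 in affected 1 to 4, −2.73 in escaper 1 and 2.01 in escaper 2, with normal dogs at −3.66 to −2.77. COL5A1, a fibrillar collagen, was at 0.55 and 1.72 in the escapers and at −1.61 to 0.68 in affected dogs. APOE, a lipid carrier made by macrophages, was at 0.03 and 2.66 in the escapers and at −1.53 to 0.38 in affected dogs. The part that fibre and connective tissue content have in the differences of escaper 2 was not tested.

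**Figure D5:**
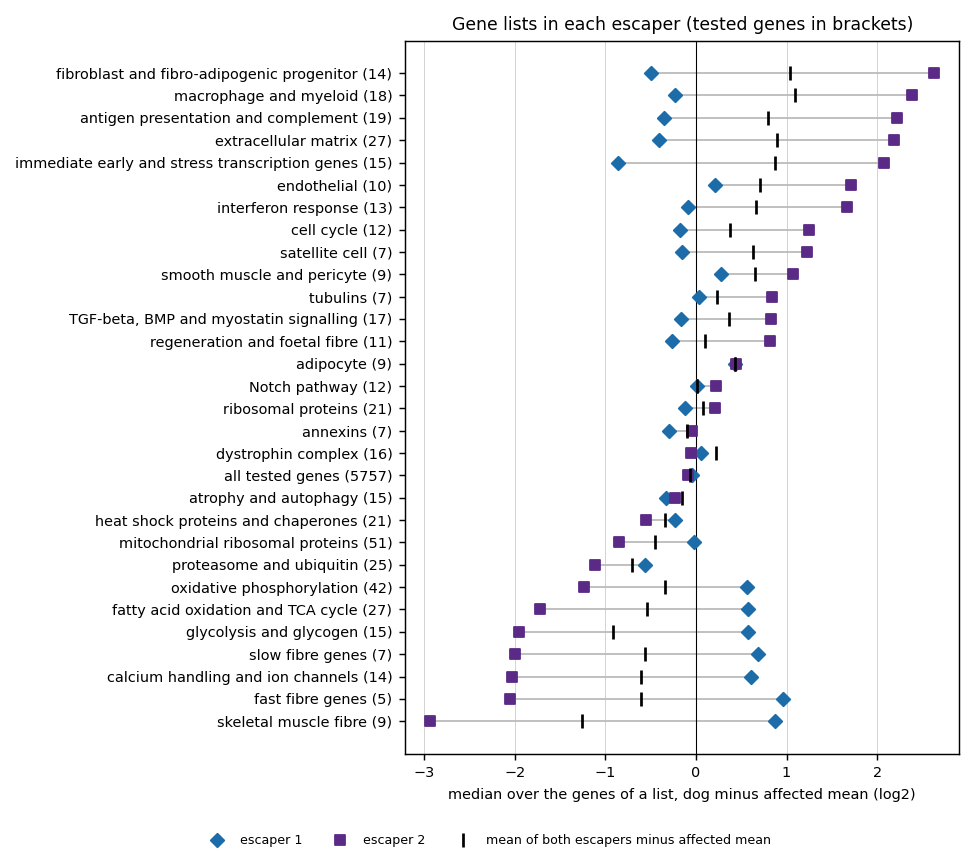
Median over each gene list of the difference from the affected mean on the log2 scale, for escaper 1, escaper 2 and the mean of both, with the number of genes tested in brackets. Fibre and energy lists at the bottom have escaper 1 right and escaper 2 left of 0, connective tissue and immune lists at the top have the reverse, and the proteasome list has both escapers left of 0.

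A few members of these lists still had both escapers outside the range. LAMB2, a laminin chain of the basement membrane at the neuromuscular junction, stood at −0.85, 0.68, 0.55 and 0.47 in affected 1 to 4 and at 1.10 and 1.23 in the escapers, separate on all arrays, with normal dogs at −0.50 to 0.15. POMT2, which starts the sugar chain of dystroglycan, was at 0.60, −0.60, −0.53 and −0.46 in affected 1 to 4 and at −0.70 and −2.87 in the escapers, on a probe bright on 1 of 4 escaper arrays. These were the only 2 of 16 dystrophin complex genes tested with both escapers outside the range, 1 (6.25%) in each direction. Over all genes 3.35% lay above and 5.05% below, and the median of this list was 0.22. FABP4, the fatty acid carrier of fat cells, stood at 0.07, 0.20, 0.39 and 0.76 in affected 1 to 4 and at 1.01 and 2.77 in the escapers. It was the 1 of 9 adipocyte markers above the range (11.1%), against 3.35% of all genes. ADIPOQ, which defines fat cells, overlapped at 1.10 and 1.12 against −0.12 to 1.31.

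TNNT2, the cardiac and foetal form of troponin T that regenerating fibres express, was at −2.81, −0.27, −0.92 and 0.43 in affected 1 to 4 and at 0.47 and 2.08 in the escapers, with normal dogs at −3.46 to −3.03. H19, an imprinted non-coding RNA of immature muscle, was below the range instead, at −2.07 and −1.76 against −1.70 to −1.30 in affected dogs. TNNT2 and H19 were each 1 of 11 regeneration genes (9.09%), against 3.35% of all genes above and 5.05% below. The median of this list was 0.10. FOXO3, which drives atrophy genes, was at −1.70 and −1.71 in the escapers and at −1.64 to 0.45 in affected dogs, and MAP1LC3B, of the autophagosome, at −0.47 and −1.20 against −0.38 to 1.31. They were 2 of 15 atrophy and autophagy genes (13.3%), against 5.05% of all genes, and affected 1 was the highest dog in both. IRF9, which carries the interferon signal, was above the range at 0.25 and 0.29 against −0.15 to 0.09, 1 of 13 interferon response genes (7.69%). FOSB was above at 0.37 and 1.51 against −0.37 to 0.33, 1 of 15 immediate early genes (6.67%). C1S was above too, and with PSMB9 made 2 of 19 antigen presentation and complement genes (10.5%). RPS9 above and RPL7A below were each 1 of 21 ribosomal proteins (4.76%), and ANXA11 below was 1 of 7 annexins (14.3%). The shares of all genes were 3.35% above and 5.05% below.

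The other lists had no member with both escapers outside the range, against 8.41% of all genes. They were fast fibre genes (5 tested, median −0.60), TGF-beta and BMP signalling (17, 0.37), heat shock proteins (21, −0.34), cell cycle (12, 0.37), tubulins (7, 0.23), satellite cell (7, 0.63) and Schwann cell markers (3, 0.24), and those of T and NK cells (2, 0.50), B cells (2, 0.47) and mast cells (3, 0.11). The fast fibre median was 0.96 in escaper 1 and −2.05 in escaper 2 against the affected mean, and that of T and NK cells −0.80 and 1.80. Ribosomal proteins (21, 0.07) and annexins (7, −0.10) had 2 and 1 such members. Red blood cell markers had none that could be tested. Where a list named a gene by its smallest p, the escapers straddled the affected dogs or 1 of them overlapped, as in HSPB7, a small heat shock protein, at −1.06 and −3.48 against −1.39 to 0.44. BMP4, a growth factor, was at 1.06 and 2.63 against 0.36 to 1.30, MCM2, of DNA replication, at −0.61 and 1.60 against −1.48 to −0.38, and the tubulin TUBA1B at −0.47 and 0.92 against −1.03 to 0.11. TPM1, TCF4, CHRDL2, MAL, CCL5, JCHAIN and CPA3 overlapped as well.

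The Notch pathway, in which a ligand on 1 cell activates a receptor on its neighbour and which acts on satellite cells, the stem cells of muscle, was looked at because the ligand JAG1 is known from work on escaper dogs. JAG1 has 1 probe, and it was not tested, since 1 affected array of the 12 arrays showed it well above background and no escaper array did. Its ratio was 0.20 and 0.04 in the escapers and −0.01, 0.36, 0.65 and 0.20 in affected 1 to 4, values too close to background to carry a level. Of the pathway's 39 genes, 19 had a probe and 12 were tested. None had both escapers outside the range, against 8.41% of all genes. In the mean 6 were higher and 6 lower, against 44.5% of all genes higher, and the median was 0.01. PSEN2, a part of the protease that releases the Notch signal, had the smallest p, at −0.26 and −0.73 against −0.56 to 0.70.

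Of 15 genes chosen for their bearing on dystrophy, 13 had a probe and 7 were tested. None had both escapers outside the range, against 8.41% of all genes. DMD, the dystrophin gene, was detected on 3 affected arrays but on 0 of 4 escaper arrays, and the labels do not say where the mutation lies, so its probe does not check them. UTRN, the dystrophin relative, MSTN, the brake on muscle growth, and the prostaglandin synthase HPGDS were bright on 0 of 12 arrays. SPP1, osteopontin, was bright on all 12 arrays but was left out because 1 spot carried an outlier flag. With that spot kept it stood at −5.79, −3.23, −5.46 and −1.08 in affected 1 to 4 and at −4.98 and −1.43 in the escapers, within the affected range, and at −10.39 to −9.13 in normal dogs. CD40, a receptor of the immune system, was at 0.15 and 4.15 in the escapers against −1.19 to 0.88, and PTGDS, a prostaglandin synthase, at 1.29 and 2.58 against −1.46 to 1.58. ROGDI was at −0.55 and −0.95 against −0.77 to −0.39 in affected dogs, while normal dogs averaged 2.03. LTBP4, which holds TGF-beta in the matrix, was at −0.22 and 0.44 against −0.43 to 0.42, ACTN3, of fast fibres, at 0.86 and −1.93 against −3.41 to 0.68, ANXA6, of membrane repair, at −0.78 and −1.87 against −1.30 to 0.22, and the cytokine IL15 at −0.33 and 1.33 against −0.91 to 0.13.

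Probe composition, brightness and chromosome of the genes outside the range are given as a description, since brightness comes from the same signals as the ratios. Probes of the 193 genes above had a median GC content of 50% and those of the 291 below 41.7%, against 45% over all genes, and the correlation of log2 ratio with probe GC content across genes ran from −0.08 in affected 1 to 0.13 in affected 2. Of the genes above, 66.8% were well above background in all 6 dogs, and of those below 83.2%, against 73.4% of all. The escapers alone were so in 8 of the genes above and 12 of all, and neither escaper was so in 23 of those below and 165 of all. The X chromosome held 13 of the 193 above, 1 of the 291 below and 175 of all 5757. Over all 14865 probes, 1233 (8.29%) lay outside the range, 580 (3.9%) above and 653 (4.39%) below, and 361 and 306 of these had no symbol. The part of probe composition and brightness in these counts was not tested.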

How the data were processed

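RNA of muscle from 10 dogs was measured on 20 arrays of 43451 spots, 42034 of them not controls. Per the file headers, the deposited intensity of each dye was read with Agilent Feature Extraction 9.5.3.1, corrected for background and normalised between dyes (linear, then LOWESS). Values of the deposited table are log2 ratios of dog over reference that equal those of the processed intensities (r = 1), with swapped arrays already turned; its columns are not centred, with medians from −0.16 to 0.25, and why is not given in the sources used here.

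The 2 arrays of each dog were averaged. A probe was tested if no spot of the 12 arrays had an outlier flag and it was well above background on both arrays of at least 2 of 6 dogs, which 14865 probes met. Intensities limit the precision of dim probes, and the number of dogs that of every comparison. Symbols came from the array files, updated by the RefSeq table of assembly UU_Cfam_GSD_1.0 (12152 probes named, 840 of them by the file alone, and 29882 unnamed), and each gene was represented by its brightest tested probe. Escaper and affected dogs were compared with limma 3.58.1 in R 4.3.3 (lmFit and eBayes, tested on simulated data) with Benjamini-Hochberg adjustment over all probes and a threshold of 0.05. P-values measure the spread between dogs, and arrays of a dog were not counted as replicates.

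Named genes were the 12 with the widest gap in each direction, the 5 with the smallest p in each direction, up to 3 members of each of 35 lists outside the affected range or otherwise the 1 with the smallest p, and 15 disease genes. The comparison, its members and the lists were chosen with earlier results of these data known. Alternatives were loess ratios from the scanner intensities (normexp, offset 50), centring, other filters, single dyes, each dog left out, all 10 dogs in 1 fit, trend and robust variance, and slide or dog as a random block.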

Additional observations from a re-analysis of the deposited data

Results flagged for a closer look

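Within the 4 affected dogs, 15 of 105 gene or list values checked had 1 dog far from the other 3. The measure was the gap to the nearest dog over the whole range (Dixon's test). Its cut is passed by chance in about 1 in 20 independent values. The 15 of 105 cannot be set against that rate, because all values come from the same 4 dogs. Many of the genes were also named for their place relative to these dogs, and some lists contain named genes. Affected 1 was the distant dog in 11 of the 15 values. It was high in the genes MYO18B (1.91, others −0.36 to 0.01), POMT2 (0.60, others −0.60 to −0.46), MAP1LC3B (1.31, others −0.38 to −0.23), PSMA2 (1.58, others −0.32 to −0.27), PSMD6 (1.52, others −0.46 to −0.28) and PSMD14 (1.93, others −0.45 to −0.35). It was low in IGFBP5 (−0.75, others 0.80 to 0.85), LAMB2 (−0.85, others 0.47 to 0.68) and MAL, a myelin protein (−4.02, others −0.88 to −0.43). Its list medians were also high for the proteasome (1.52, others −0.37 to −0.29) and for atrophy and autophagy genes (0.82, others −0.36 to −0.25).

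Affected 3 was the distant dog in HSPB7 (−1.39, others 0.31 to 0.44) and in the median of ribosomal proteins (0.0236, others −0.15 to −0.12). Affected 4 was so in GNAI1 (0.23, others 0.87 to 0.90) and in the median of antigen presentation and complement genes (0.33, others −0.53 to −0.39). The escaper group, with 2 dogs, is too small for such a check.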

How the results depend on the processing

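No alternative put a probe past the adjusted threshold. Across the 17 alternatives the smallest limma adjusted p ran from 0.118 without escaper 1 to 0.99998 in Cy3 alone, and unadjusted p under 0.05 was reached by 146 to 3074 probes. The highest count came without escaper 1, where escaper 2 is assumed to vary like the affected dogs, and 1279 came with slide as a random block (estimated correlation −0.42), which left 0 past the threshold as well. No paired analysis was possible because the labels give the dogs no numbers shared between groups, and replicate numbers here only name them.

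The counts of genes with both escapers outside the range were 438 above and 547 below with no filter on dim probes, 34 and 53 when all arrays had to be separate, and from 275 to 1604 and from 408 to 1928 when 1 dog was left out. Ratios recomputed by loess kept 134 of the 193 and 216 of the 291 genes, centring kept 168 and 259, Cy5 alone 115 and 179, and Cy3 alone 116 and 195. Of 73 named genes, 64 kept 1 sign in every setting, but loess made the difference over 1.5 times smaller in 9 of the 12 genes with the widest gaps above and 10 of the 12 below.

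Leaving out 1 dog moved these list medians from one side of 0 to the other, with both ends set by leaving out an escaper: Schwann and nerve (−0.30 to 1.36), TGF-beta, BMP and myostatin signalling (−0.17 to 0.83), antigen presentation and complement (−0.36 to 2.22), calcium handling and ion channels (−2.03 to 0.60), cell cycle (−0.17 to 1.25), extracellular matrix (−0.41 to 2.19), fast fibre genes (−2.05 to 0.96), fatty acid oxidation and TCA cycle (−1.72 to 0.58), fibroblast and fibro-adipogenic progenitor (−0.50 to 2.63), glycolysis and glycogen (−1.95 to 0.57), immediate early and stress transcription genes (−0.86 to 2.08), interferon response (−0.084 to 1.67), macrophage and myeloid (−0.24 to 2.39), mast cell and granulocyte (−0.56 to 0.62), oxidative phosphorylation (−1.24 to 0.56), regeneration and foetal fibre (−0.26 to 0.82), ribosomal proteins (−0.12 to 0.21), satellite cell (−0.16 to 1.23), skeletal muscle fibre (−2.93 to 0.88) and slow fibre genes (−1.99 to 0.69). It moved without a change of sign endothelial (0.21 to 1.71), mitochondrial ribosomal proteins (−0.85 to −0.0217) and smooth muscle and pericyte (0.27 to 1.07). Where an affected dog set an end, the ranges were Notch pathway (−0.0889 to 0.23), adipocyte (0.17 to 0.51), annexins (−0.30 to 0.13), disease genes (−0.14 to 0.56), dystrophin complex (−0.21 to 0.31) and tubulins (−0.0273 to 0.84). The adipocyte median was 0.0898 by loess, 0.0799 with no filter, 0.14 with genes bright in all 6 dogs and −0.14 in Cy3 alone, the annexin median 0.32 and the fast fibre median 0.11 with genes bright in all 6 dogs, and the mast cell median 0.82 in Cy5 alone; the causes were not tested. Single genes that changed sign when a dog was left out were ACTN3 (−1.28 to 1.51), CAPN3 (−2.89 to 0.65), CCL5 (−0.43 to 3.34), CD40 (−0.00785 to 3.99), CPA3 (−0.86 to 3.45), JCHAIN (−0.0789 to 1.86), LTBP4 (−0.30 to 0.36), ROGDI (−0.31 to 0.10) and TRIM54 (−2.71 to 0.014). LTBP4 was −0.00163 and ROGDI 0.00684 by loess, and ACTN3 −0.0856 in Cy5 alone. Dim probes limit genes such as CCL24, ANGPT4, ATPAF1, COA6, MPHOSPH8, MYO18B and JAG1, and 2 escaper dogs on 1 slide limit every comparison.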
